A study of Mus musculus with 10 samples.

Results

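The enzymes that write, copy and remove cytosine methylation were followed across hepatocyte-like cells, adult hepatocytes and mouse embryonic stem cells. A list of 9 genes was set by name: the DNA methyltransferases Dnmt1, Dnmt3a and Dnmt3b, the cofactor Dnmt3l, the hemimethylated-DNA reader Uhrf1, the dioxygenases Tet1, Tet2 and Tet3, and the thymine glycosylase Tdg. Of these, 8 were read by a transcript cluster (the probe group of 1 transcript on the array) that the platform annotation gives to 1 gene, out of 22180 genes tested. Tdg stood only on 2 clusters shared with its pseudogenes and is not described. Each of the 8 genes had 1 cluster.

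RNA of 10 samples was hybridised to Affymetrix arrays, with 3 arrays of hepatocyte-like cells (labelled ES_HLC, differentiated from embryonic stem cells), 3 of adult hepatocytes from liver (Ad_Hep) and 4 of undifferentiated embryonic stem cells (mESC). All carried the transgene Tg(CAG-luc, GFP)L2G85Chco/FathJ under the strain prefix C.FVB, in which the CAG promoter drives luciferase and green fluorescent protein, and all carried the same passage label, the adult hepatocytes included. No treatment or animal age is given in the labels. Replicates are called biological, and nothing states separate cultures or animals, so the p-values cover only the spread among these arrays.

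DNA methylation in mammals is laid down by DNMT3A and DNMT3B, which the catalytically inactive DNMT3L assists in germ cells and early embryos. It is copied at each replication by DNMT1, which UHRF1 brings to hemimethylated sites behind the fork. The TET enzymes oxidise 5-methylcytosine, and TDG with base excision repair can then restore an unmodified cytosine. Embryonic stem cells are known for high transcript levels of both the de novo enzymes and TET1, and nondividing liver for low levels of the maintenance pair. Transcripts were measured here and DNA methylation was not.

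Several arrays stood apart. Over 19 measured genes of DNA replication, hepatocyte-like replicate 2 had a mean log2 level of 7.33, below 8.42 and 8.43 for the other two replicates. Hepatocyte-like replicate 3 had the stem cell factor Nanog at 7.12, where the others had 5.08 and 5.09, and albumin, Alb, at 10.80, where they had 4.85 and 5.14. Not all stem cell markers were highest in that array. Esrrb read 5.23, 4.71 and 4.46 in hepatocyte-like replicates 1 to 3, and the 9 stem cell markers averaged 4.48, 4.46 and 5.0. The 10 hepatocyte markers averaged 5.31, 5.81 and 7.03 in hepatocyte-like replicates 1 to 3, 12.46 to 12.49 in adult hepatocytes and 4.67 to 4.87 in embryonic stem cells. Of the 10, 3 rose in hepatocyte-like cells over embryonic stem cells, against 8.61% of all genes. All 5 measured fetal liver markers rose there, and all 5 were also called higher than in adult hepatocytes, against 13.9% of all genes. The 8 fibroblast and stellate cell markers averaged 10.08, 9.09 and 7.79 in hepatocyte-like cells, 5.66 to 5.82 in adult hepatocytes and 4.54 to 4.70 in embryonic stem cells. All 8 were called higher in hepatocyte-like cells than in embryonic stem cells, against 8.61% of all genes. Against adult hepatocytes, hepatocyte-like cells had 6 of the 8 called higher (13.9% of all genes). There 1 marker, Dcn, was called lower, at -1.90 (9.12% of all genes). Dcn read 7.95, 7.61 and 5.85 in hepatocyte-like cells and 9.59, 8.61 and 8.89 in adult hepatocytes. It was the 1 marker of the 8 that adult hepatocytes had called higher relative to embryonic stem cells, at 5.16. In adult hepatocytes 5 of 7 macrophage markers and 4 of 6 endothelial markers were called higher than in embryonic stem cells, and 1 of each list was called lower, with list means of 6.30 to 6.53 and 7.52 to 7.70. Over all genes 11.0% were called higher there and 15.6% lower. In bulk RNA fewer cells of a type and less RNA per cell cannot be told apart. The part of these differences in the results below was not tested.

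Differences are of mean log2 levels, with the standard error (SE) of limma's fit of all 10 arrays. A gene was called, and is said to have risen or fallen, at a Benjamini-Hochberg adjusted p under 0.05 over all genes and a log2 difference of at least 1. A mean level under 5.5 is called dim, and a fold against a dim level is uncertain because no background reading was used.

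In hepatocyte-like cells 6 of the 8 enzymes fell relative to embryonic stem cells, against 7.35% of all genes called lower, and 1, Tet3, rose, against 8.61% called higher and 16.0% called in either direction. Adult hepatocytes had 6 of 8 lower than embryonic stem cells (15.6% of all genes) and 0 higher (11.0%), with 26.6% of all genes called either way. Hepatocyte-like cells had 4 of 8 higher than adult hepatocytes (13.9% of all genes) and 0 lower (9.12%), with 23.0% called either way. At an unadjusted p under 0.05 in limma, 7 of 8 differed there and 8 of 8 in both other comparisons. For counts at an unadjusted p, here and below, the share of all genes was not computed. It is large, because 6390, 9205 and 8003 of 22180 genes passed the adjusted p alone in the 3 comparisons, in the order given above. The median difference of the 8 was -1.57, -2.78 and 1.18 in these comparisons, beside -0.01, 0.05 and -0.04 over all genes. In both comparisons with embryonic stem cells the groups did not overlap for any of the 8 enzymes, against 34.6% of all genes for hepatocyte-like cells and 46.9% for adult hepatocytes. Between hepatocyte-like cells and adult hepatocytes 6 of 8 did not overlap, against 45.1% of all genes. The comparisons share arrays.

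**Figure D1:**
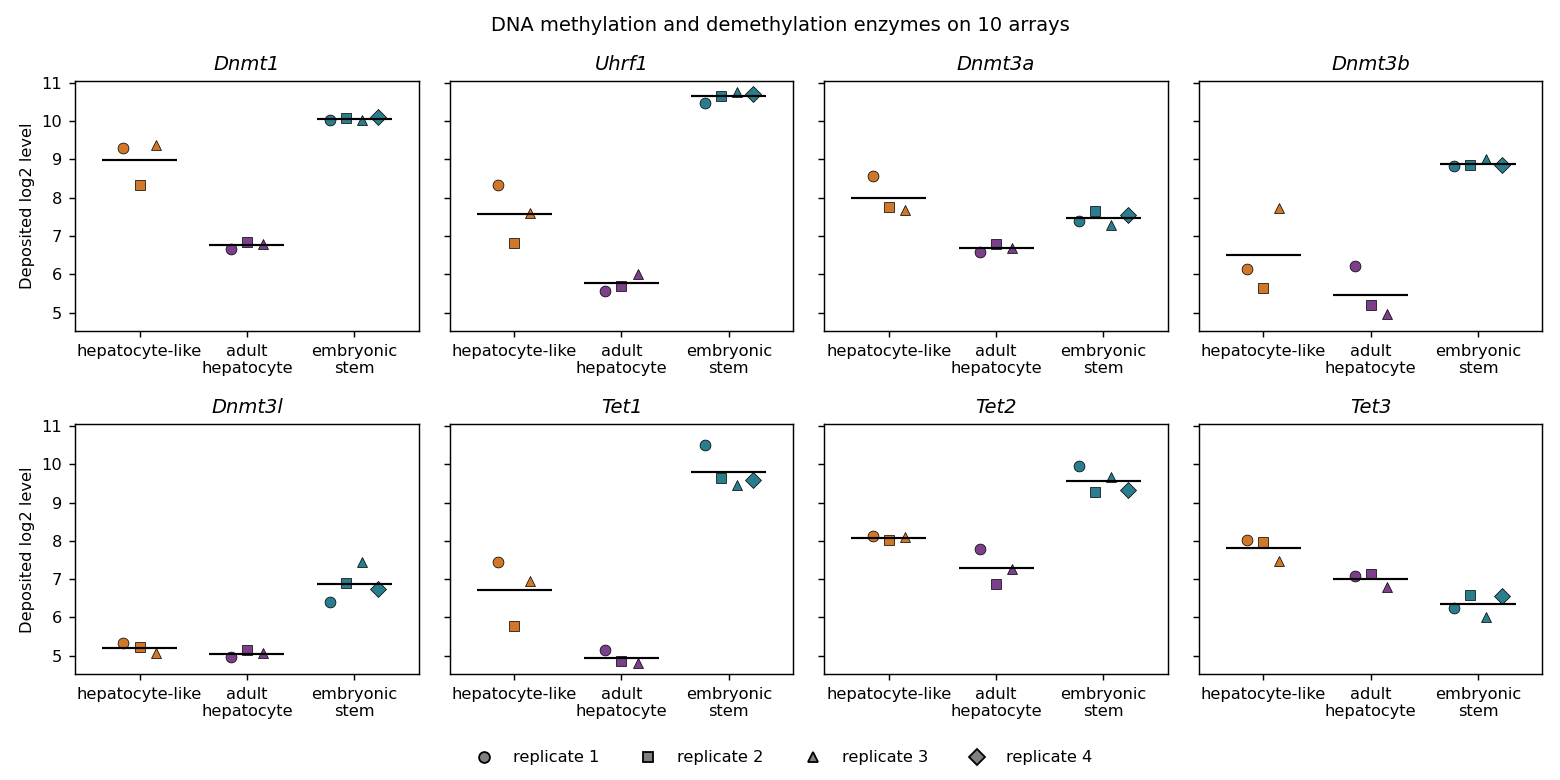
Deposited log2 level of 8 enzymes (vertical axis) on each array of hepatocyte-like cells, adult hepatocytes and embryonic stem cells; symbols mark the replicate number and lines the group mean. Uhrf1 and Tet1 show the widest steps against embryonic stem cells and Dnmt1 the widest between hepatocyte-like cells and adult hepatocytes, at 2.23, while Tet3 is lowest in embryonic stem cells, at a mean of 6.36.

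The maintenance pair Dnmt1 and Uhrf1 was highest in embryonic stem cells and lowest in adult hepatocytes. Their RefSeq promoter windows (GRCm38.p6, from 250 bases before to 50 after a start site) are printed because the pair moved with the replication genes. Other enzymes moved in these directions too, Tet1 and Dnmt3b among them. Capitals mark CCAAT boxes and the E2F forms TTTCCCGC, TTTCGCGC, TTTGCCGC and TTTGGCGC, searched on both strands, and the matches shown do not overlap apart from a pair of CCAAT boxes on opposite strands in Dnmt1.
Dnmt1, chr9:20952574-20952873, minus strand: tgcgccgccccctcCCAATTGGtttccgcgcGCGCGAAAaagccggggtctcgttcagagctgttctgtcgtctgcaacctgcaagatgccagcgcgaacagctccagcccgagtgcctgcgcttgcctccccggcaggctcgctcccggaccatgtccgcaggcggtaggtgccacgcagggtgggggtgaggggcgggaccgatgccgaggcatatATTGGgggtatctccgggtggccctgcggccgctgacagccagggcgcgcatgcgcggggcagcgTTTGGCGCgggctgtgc
Uhrf1, chr17:56304063-56304362, plus strand: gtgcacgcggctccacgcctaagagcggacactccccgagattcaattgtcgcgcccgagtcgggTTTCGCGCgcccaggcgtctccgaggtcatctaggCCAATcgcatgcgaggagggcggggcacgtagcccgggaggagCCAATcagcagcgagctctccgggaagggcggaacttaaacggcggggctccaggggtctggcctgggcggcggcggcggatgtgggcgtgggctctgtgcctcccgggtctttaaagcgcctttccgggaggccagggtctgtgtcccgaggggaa
An E2F form stood in a window of 2 of the 8 enzymes, these 2, and in 2.6% of 27025 genes with a window, counting a gene's several windows together. Of 15 replication genes with a window 6 held it. The windows of Tet1 and Dnmt3b held 0 E2F forms and 0 CCAAT boxes. Tet1 changed by -3.08 in hepatocyte-like cells and by -4.86 in adult hepatocytes, relative to embryonic stem cells. For Uhrf1 these changes were -3.07 and -4.89, and for Dnmt3b -2.38 and -3.42. CCAAT was present for 3 of the 8 enzymes and 41.1% of genes, and the GC box GGGCGG for 8 of 8 and 38.2% of genes. The octamer ATGCAAAT was in no window of the 8, and in 2.0% of genes. The Dnmt1 and Uhrf1 windows above, picked for their E2F form, each held 33 CpG sites, while the other Dnmt1 windows held 2 and 12 and the other Uhrf1 window 12, and the median of 32851 windows was 7. A match is only a string of letters, and windows of Dnmt1 and Uhrf1 at other listed starts did not hold the E2F form. Whether a match has any part in these changes was not tested.

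Dnmt1, the methyltransferase that copies methylation, read 9.29, 8.32 and 9.38 in hepatocyte-like cells, 6.65, 6.83 and 6.80 in adult hepatocytes, and 10.03, 10.08, 10.04 and 10.12 in embryonic stem cells. The 3 groups do not overlap, and hepatocyte-like replicate 2 is the low array of its group. Dnmt1 fell by 1.07 ± 0.22 in hepatocyte-like cells relative to stem cells (2.10-fold, adjusted p = 0.00277), and by 3.31 ± 0.22 in adult hepatocytes (9.90-fold, adjusted p = 7.91e-08). Hepatocyte-like cells stood 2.23 ± 0.24 above adult hepatocytes (adjusted p = 8.31e-06). Without hepatocyte-like replicate 2 the first difference was -0.73 (adjusted p = 0.00451), short of the minimum of 1.

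Uhrf1, which reads hemimethylated sites and recruits DNMT1, read 8.34, 6.81 and 7.60 in hepatocyte-like cells, 5.56, 5.70 and 6.02 in adult hepatocytes, and 10.48, 10.66, 10.75 and 10.70 in embryonic stem cells. Every hepatocyte-like array lay between the other two groups, and replicate 2 was again the lowest. Uhrf1 fell by 3.07 ± 0.28 in hepatocyte-like cells relative to stem cells (8.37-fold, adjusted p = 4.52e-06), which placed it 137th from the lowest difference of the 22180 genes. It fell by 4.89 ± 0.28 in adult hepatocytes (29.6-fold, adjusted p = 1.46e-08), 67th from the lowest. Hepatocyte-like cells stood 1.82 ± 0.30 above adult hepatocytes (adjusted p = 3.31e-04).

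Replication genes moved in the same direction. Of 19 measured, 15 fell in hepatocyte-like cells relative to stem cells, against 7.35% of all genes. They were led by the helicase subunit Mcm5 (-2.87 ± 0.33), the licensing factor Cdt1 (-2.57 ± 0.33), Mcm3 (-2.45 ± 0.36) and Gins1 (-2.36 ± 0.35). All 19 fell in adult hepatocytes, against 15.6% of all genes, with cyclin Ccna2 at -5.33 ± 0.30, Mcm5 at -4.68 ± 0.33, Cdc6 at -4.62 ± 0.38 and Mcm6 at -4.59 ± 0.32. In hepatocyte-like cells 18 were higher than in adult hepatocytes, against 13.9% of all genes. Ccna2 stood at 4.41 ± 0.32, the ribonucleotide reductase genes Rrm1 and Rrm2 at 2.78 ± 0.25 and 2.71 ± 0.35 and Cdc6 at 2.69 ± 0.41. Ccna2 and Cdc6 were dim in adult hepatocytes, with means of 4.82 and 4.42, so the sizes of their differences there are uncertain. The mean over the 19 genes changed by -1.68 in hepatocyte-like cells and by -3.70 in adult hepatocytes, relative to embryonic stem cells. Uhrf1 changed by more than this mean and Dnmt1 by less, in both comparisons. Measured within arrays, Dnmt1 minus the replication mean was 0.87, 0.99 and 0.95 in hepatocyte-like cells, 0.79, 0.80 and 0.59 in adult hepatocytes, and 0.28, 0.39, 0.20 and 0.46 in embryonic stem cells. For Uhrf1 the same difference was -0.09, -0.51 and -0.83 in hepatocyte-like cells, -0.30, -0.33 and -0.19 in adult hepatocytes, and 0.72, 0.98, 0.91 and 1.03 in embryonic stem cells. For both genes the stem cell arrays thus lay apart from the other groups, in opposite directions. This contrast was picked after the values were seen and not tested, and it is not particular to the pair. Stem cell arrays also lay above the other groups for Tet1 (-0.37 to 0.74 against -1.56 to -0.72). They lay below them for Dnmt3a (-2.54 to -2.05 against -0.74 to 0.77) and Tet3 (-3.82 to -3.08 against -0.96 to 1.23). For Dnmt3b, Dnmt3l and Tet2 they overlapped the other groups.

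**Figure D2:**
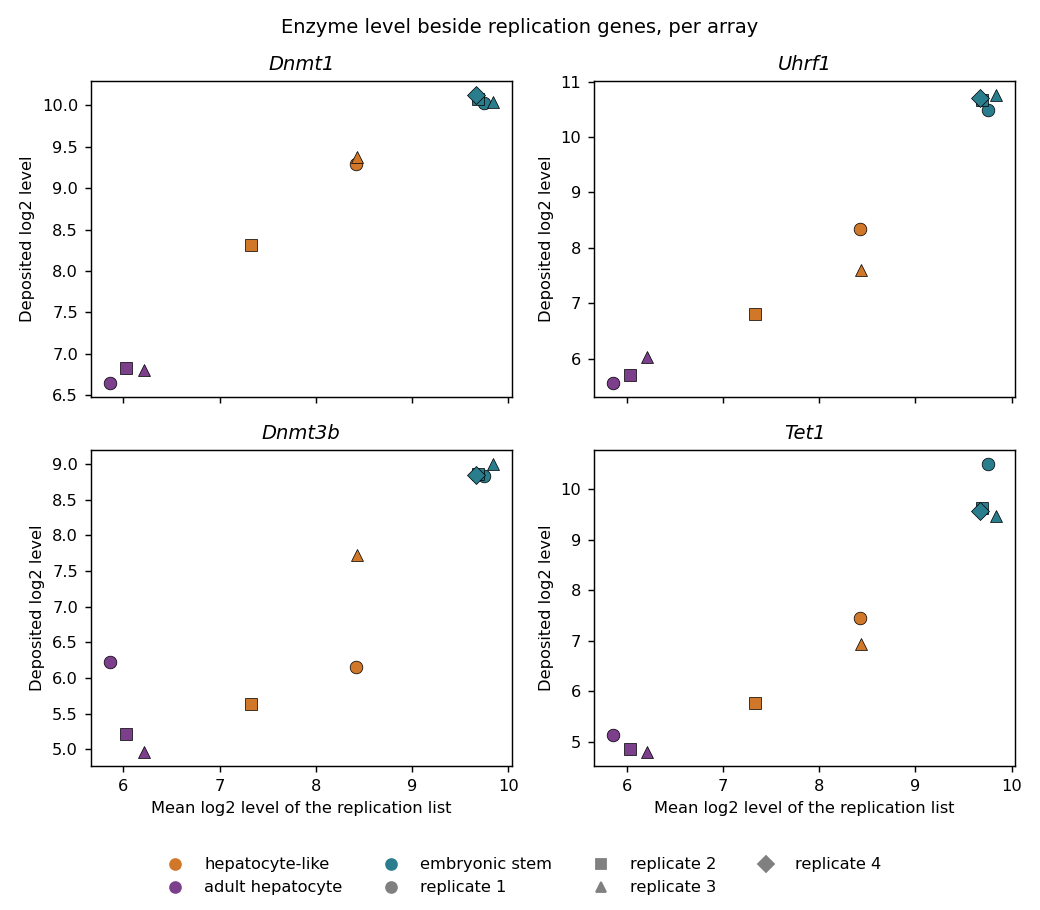
Log2 level of Dnmt1, Uhrf1, Dnmt3b and Tet1 (vertical axes) against the mean log2 level of 19 replication genes (horizontal axis) on each array; colours mark the 3 cell kinds and symbols the replicate. Hepatocyte-like replicate 2, at a replication mean of 7.33, is the lowest array of its group for all 4 genes, and hepatocyte-like replicate 3 is the highest of its group for Dnmt3b, at 7.73.

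The de novo enzymes split. Dnmt3b, the form most active in pluripotent cells, read 6.15, 5.64 and 7.73 in hepatocyte-like cells, 6.22, 5.21 and 4.97 in adult hepatocytes, and 8.83, 8.86, 9.0 and 8.85 in embryonic stem cells. Hepatocyte-like replicate 3 was the highest of its group, and adult replicate 1 overlapped the hepatocyte-like range. Relative to embryonic stem cells, the difference in hepatocyte-like cells was -2.38 ± 0.41 (adjusted p = 7.58e-04), or -2.99 without replicate 3. Dnmt3b fell by 3.42 ± 0.41 in adult hepatocytes (10.7-fold, adjusted p = 1.68e-05), whose mean was dim. Between hepatocyte-like cells and adult hepatocytes the difference was 1.04 ± 0.44 and was not called (adjusted p = 0.0876, 95% interval 0.08 to 2.0). That difference was 0.43 without hepatocyte-like replicate 3 (adjusted p = 0.348), and it passed with hepatocyte-like replicate 2 left out (1.48, adjusted p = 0.0176) or adult replicate 1 left out (1.42, adjusted p = 0.0299).

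Dnmt3a, the de novo enzyme more widely used in differentiated tissues, had smaller differences from embryonic stem cells than Dnmt3b. It read 8.57, 7.75 and 7.69 in hepatocyte-like cells, 6.59, 6.80 and 6.68 in adult hepatocytes, and 7.39, 7.64, 7.29 and 7.56 in embryonic stem cells. All 3 hepatocyte-like arrays lay above all others, by a narrow margin for replicates 2 and 3. For Dnmt3a hepatocyte-like cells stood 1.32 ± 0.22 above adult hepatocytes (2.49-fold, adjusted p = 4.27e-04). Against embryonic stem cells the difference in hepatocyte-like cells was 0.53 ± 0.21 (adjusted p = 0.0778, 95% interval 0.08 to 0.99), and 0.25 without hepatocyte-like replicate 1. In adult hepatocytes it was -0.78 ± 0.21 relative to embryonic stem cells (adjusted p = 0.00826), under the minimum size.

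Dnmt3l, the inactive cofactor of the de novo enzymes, read 5.33, 5.24 and 5.07 in hepatocyte-like cells, 4.96, 5.14 and 5.06 in adult hepatocytes, and 6.41, 6.90, 7.44 and 6.74 in embryonic stem cells. Both hepatic kinds were dim and overlapped. Dnmt3l fell by 1.66 ± 0.21 in hepatocyte-like cells (adjusted p = 7.28e-05) and by 1.82 ± 0.21 in adult hepatocytes (adjusted p = 1.19e-05), relative to embryonic stem cells. Hepatocyte-like cells and adult hepatocytes differed by 0.16 ± 0.23 (adjusted p = 0.632, 95% interval -0.33 to 0.65), which sets no bound on a dim transcript.

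Of the TET genes, Tet1 and Tet2 were lower in both hepatic kinds than in embryonic stem cells, and Tet3 was higher. Tet1, the TET enzyme typical of pluripotent cells, read 7.45, 5.77 and 6.94 in hepatocyte-like cells, 5.14, 4.87 and 4.81 in adult hepatocytes, and 10.50, 9.64, 9.47 and 9.58 in embryonic stem cells. The 3 groups do not overlap, and hepatocyte-like replicate 2 is the low array of its group. Tet1 fell by 3.08 ± 0.35 in hepatocyte-like cells relative to stem cells (8.46-fold, adjusted p = 2.71e-05), 134th from the lowest difference of all genes. In adult hepatocytes, where it was dim, it fell by 4.86 ± 0.35 (adjusted p = 1.34e-07), 71st from the lowest. Hepatocyte-like cells stood 1.78 ± 0.37 above adult hepatocytes (adjusted p = 0.00205).

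Tet2, which lacks the DNA-binding CXXC domain of its relatives, read 8.12, 8.03 and 8.09 in hepatocyte-like cells, 7.78, 6.88 and 7.26 in adult hepatocytes, and 9.95, 9.28, 9.68 and 9.32 in embryonic stem cells. The hepatocyte-like arrays agreed closely, with an SD of 0.05 (n = 3). Tet2 fell by 1.48 ± 0.22 in hepatocyte-like cells (2.79-fold, adjusted p = 2.76e-04) and by 2.25 ± 0.22 in adult hepatocytes (4.77-fold, adjusted p = 2.83e-06), relative to embryonic stem cells. Hepatocyte-like cells were 0.77 ± 0.24 above adult hepatocytes (adjusted p = 0.0223), not called for its size, although it was called without adult replicate 1 (1.01, adjusted p = 0.00444).

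Tet3, the enzyme known for oxidising the paternal genome in the zygote, read 8.02, 7.97 and 7.47 in hepatocyte-like cells, 7.08, 7.14 and 6.80 in adult hepatocytes, and 6.24, 6.60, 6.02 and 6.57 in embryonic stem cells. Its order is the reverse of Tet1 between embryonic stem cells and both hepatic kinds, and the groups do not overlap. Tet3 rose by 1.46 ± 0.20 in hepatocyte-like cells relative to stem cells (2.76-fold, adjusted p = 1.17e-04). In adult hepatocytes it was 0.65 ± 0.20 above embryonic stem cells (adjusted p = 0.0175), and hepatocyte-like cells were 0.81 ± 0.21 above adult hepatocytes (adjusted p = 0.00863), both under the minimum size.

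**Figure D3:**
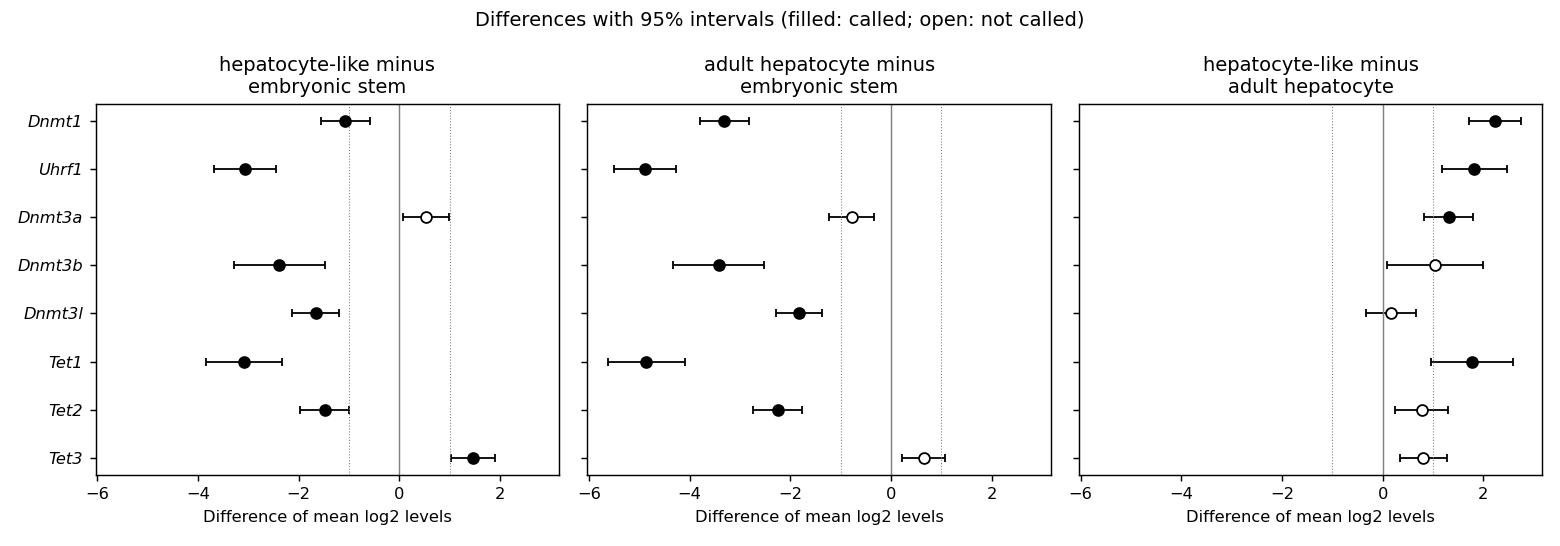
Difference of mean log2 levels (horizontal axis) with its 95% interval for 8 enzymes in 3 comparisons; filled points were called and dotted lines mark a difference of 1. Dnmt3a and Tet3 stand to the right of 0 in hepatocyte-like cells relative to stem cells, at 0.53 and 1.46, and the other 6 to the left.

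Whether related enzymes changed unequally was tested on their within-array difference, with a 2-sided exact permutation test over arrays. For 3 arrays against 4 the smallest p this test can give is 0.0571, so it cannot pass 0.05. The difference Dnmt3b minus Dnmt3a changed by -2.92 in hepatocyte-like cells and by -2.64 in adult hepatocytes, relative to embryonic stem cells. Tet1 minus Tet2 changed by -1.60 in hepatocyte-like cells and by -2.60 in adult hepatocytes, and Tet1 minus Tet3 by -4.54 and -5.51. All 6 tests gave the smallest p possible (exact p = 0.0571, adjusted p = 0.0571 over the 6), so in each the arrays of the groups were fully separated. For Tet1 minus Tet3 in both comparisons this separation was fixed beforehand, because each gene alone already lay apart, in opposite directions. The same holds for Dnmt3b minus Dnmt3a in hepatocyte-like cells. Those tests add nothing to the values of the single genes.

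Transcripts of proteins that guide, assist or repress the enzymes were then followed as a list of 24 measured genes. In hepatocyte-like cells 1 rose relative to embryonic stem cells, against 8.61% of all genes, and 9 fell, against 7.35%. The falls were led by Prdm14 (-3.66 ± 0.19), a repressor of the Dnmt3 genes in stem cells, and by Cdca7 (-2.41 ± 0.25) and Hells (-2.14 ± 0.41), the parts of a nucleosome remodeller needed for methylation, with the corepressor Trim28 at -1.65 ± 0.17. Prdm14 was dim in hepatocyte-like cells, at a mean of 4.89. The single gene that rose was the Uhrf1 relative Uhrf2, named after its values were seen, at 9.24, 9.21 and 9.63 in hepatocyte-like cells and 8.18, 8.19, 8.09 and 8.23 in embryonic stem cells (1.19 ± 0.16, adjusted p = 9.33e-05). Its direction is opposite to that of Uhrf1. In adult hepatocytes 13 fell, against 15.6% of all genes, with Hells at -4.72 ± 0.41, Cdca7 at -3.79 ± 0.25, the histone methyltransferase Ezh2 at -3.29 ± 0.22 and Prdm14 at -3.25 ± 0.19. Hells, Cdca7 and Prdm14 were dim in adult hepatocytes, with means of 4.70, 5.46 and 5.30, so the sizes and order of these differences are uncertain, as is that of Hells in the next comparison. Hepatocyte-like cells had 10 higher than adult hepatocytes, against 13.9% of all genes. These were led by Hells (2.58 ± 0.44), Ezh2 (2.52 ± 0.23), the deacetylase Hdac2 (2.03 ± 0.23) and the imprint-protecting zinc finger gene Zfp57 (1.85 ± 0.28).

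Readers of methylated CpG, which bind the finished mark, were taken next. Of 7 measured, Mbd2 (1.25 ± 0.19) and the zinc finger reader Zbtb4 (1.21 ± 0.17) rose in hepatocyte-like cells relative to stem cells, and the glycosylase Mbd4 fell by 1.25 ± 0.17. Over all genes 8.61% were called higher and 7.35% lower there. In adult hepatocytes Mbd4 fell by 1.70 ± 0.17 and was the single reader called, against 26.6% of all genes. In that comparison 1 reader was called higher without adult replicate 2, adult replicate 3 or stem cell replicate 4, and 2 lower without stem cell replicate 1. Between hepatocyte-like cells and adult hepatocytes limma called 0 of 7, against 23.0% of all genes, and 3 had an unadjusted p under 0.05.

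The repair and deamination list holds genes of base excision repair and the deaminase family, not only steps after oxidation. Tdg was not measured, and Mbd4 of the reader list is counted here too. In hepatocyte-like cells relative to stem cells 6 of 15 were lower, against 7.35% of all genes, and 1 was higher, against 8.61%. The deaminase family members Apobec2 (-3.73 ± 0.31) and Apobec3 (-3.14 ± 0.25) and the uracil glycosylase Ung (-2.45 ± 0.18) fell, and the stress-inducible Gadd45g rose by 2.99 ± 0.52. Apobec2 was dim in hepatocyte-like cells and adult hepatocytes, at means of 4.87 and 5.27. In adult hepatocytes 8 fell, against 15.6% of all genes, led by Apobec3 (-3.76 ± 0.25), Apobec2 (-3.33 ± 0.31), the strand-break sensor Parp1 (-2.60 ± 0.26) and Ung (-2.40 ± 0.18). The 1 gene called higher, against 11.0% of all genes, was Gadd45g (1.56 ± 0.52), named after its values were seen. Gadd45g read 8.27, 6.37 and 5.66 in adult hepatocytes, against 5.10, 5.54, 5.07 and 5.11 in stem cells, where it was dim, so that adult replicate 1 stood far above the others. Without that array its difference was 0.81 and was not called (adjusted p = 0.131), and the call was also lost without stem cell replicate 1, 3 or 4. Between hepatocyte-like cells and adult hepatocytes 3 of 15 were called, a share below the 23.0% of all genes, with Gadd45b (1.24 ± 0.40) and the repair polymerase Polb (1.04 ± 0.25) higher and Apobec1 lower (-1.07 ± 0.27). Each of these 3 calls was lost on leaving out at least 1 single array. The number higher was 1 without hepatocyte-like replicate 2 or adult replicate 2, 0 without replicate 3 of either kind, and 3 without replicate 1 of either kind, when the number lower was 0.

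S-adenosylmethionine, the methyl donor, is made and recycled by the methionine cycle. The list also holds methyltransferases that use the donor, Gnmt and Pemt among them, and the transsulfuration genes Cth and Cbs. Mat2a, another gene of the donor-making synthetase, was not among those measured. The counts thus do not describe the supply of the donor. Of 17 measured genes 8 fell in hepatocyte-like cells relative to stem cells, against 7.35% of all genes. They were led by the transsulfuration enzymes Cth (-3.41 ± 0.28) and Cbs (-2.55 ± 0.22) and the serine hydroxymethyltransferases Shmt1 (-2.29 ± 0.19) and Shmt2 (-1.91 ± 0.21). In adult hepatocytes 10 rose, against 11.0% of all genes, and 3 fell, against 15.6%. The liver form of the donor-making synthetase, Mat1a, stood at 8.02 ± 0.27, the glycine methyltransferase Gnmt at 6.71 ± 0.20, Bhmt2 at 5.40 ± 0.21 and Pemt at 4.75 ± 0.14. Mat1a, Gnmt and Bhmt2 were dim in both hepatocyte-like cells and stem cells, which leaves the sizes of their differences uncertain. Mat1a read 4.97, 4.79 and 6.11 in hepatocyte-like cells, 12.69, 12.76 and 12.65 in adult hepatocytes, and 5.01, 4.51, 4.44 and 4.73 in embryonic stem cells. Hepatocyte-like cells had 12 of the 17 lower than adult hepatocytes, against 9.12% of all genes, including Mat1a (-7.41 ± 0.29), Gnmt (-6.64 ± 0.21), Bhmt2 (-6.52 ± 0.23) and Cth (-5.17 ± 0.30).

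TET enzymes use 2-oxoglutarate and are aided by vitamin C. Of 10 genes that supply either, 5 rose in adult hepatocytes relative to embryonic stem cells, against 11.0% of all genes, and 2 fell, against 15.6%. The number lower was 0 without adult replicate 2 and 1 without adult replicate 3, stem cell replicate 1 or stem cell replicate 3. Gulo, the last enzyme of vitamin C synthesis, rose by 5.91 ± 0.14, the vitamin C transporter Slc23a1 by 4.13 ± 0.22, Idh1 by 1.27 ± 0.15 and D2hgdh by 1.24 ± 0.19. Hepatocyte-like cells had 5 lower than adult hepatocytes, against 9.12% of all genes, with Gulo, dim in hepatocyte-like cells, at -6.76 ± 0.14, Slc23a1 at -5.08 ± 0.24, Glud1 at -2.20 ± 0.16 and Idh1 at -1.82 ± 0.16. Relative to embryonic stem cells 3 fell in hepatocyte-like cells, Idh3g (-1.10 ± 0.15), Glud1 (-1.06 ± 0.15) and Idh2 (-1.0 ± 0.35), against 7.35% of all genes. This count was 1 without hepatocyte-like replicate 2 and 5 without replicate 3. The call of Idh2 was lost without any of 6 single arrays.

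Germline genes whose promoters are known to be methylated in somatic cells were read as well. Of 15 measured, 8 fell in hepatocyte-like cells (7.35% of all genes) and 7 in adult hepatocytes (15.6% of all genes), relative to embryonic stem cells. The germ cell RNA-binding gene Dazl read 3.95, 4.23 and 4.19 in hepatocyte-like cells, 3.58, 4.33 and 3.82 in adult hepatocytes, and 7.69, 7.59, 7.14 and 7.38 in embryonic stem cells. It fell by 3.32 ± 0.20 in hepatocyte-like cells and by 3.54 ± 0.20 in adult hepatocytes. The meiotic chromosome gene Hormad1 (-3.70 ± 0.57 in hepatocyte-like cells and -3.68 ± 0.57 in adult hepatocytes), Sycp1 (-2.29 ± 0.49 and -2.59 ± 0.49) and Rpl10l (-4.14 ± 0.27 and -3.60 ± 0.27) fell too. Rpl10l is a close copy of Rpl10, so its probes may not be specific. Hepatocyte-like cells and adult hepatocytes, both dim for these genes, had 0 of 15 called by limma, against 23.0% of all genes, with 1 at an unadjusted p under 0.05.

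**Figure D4:**
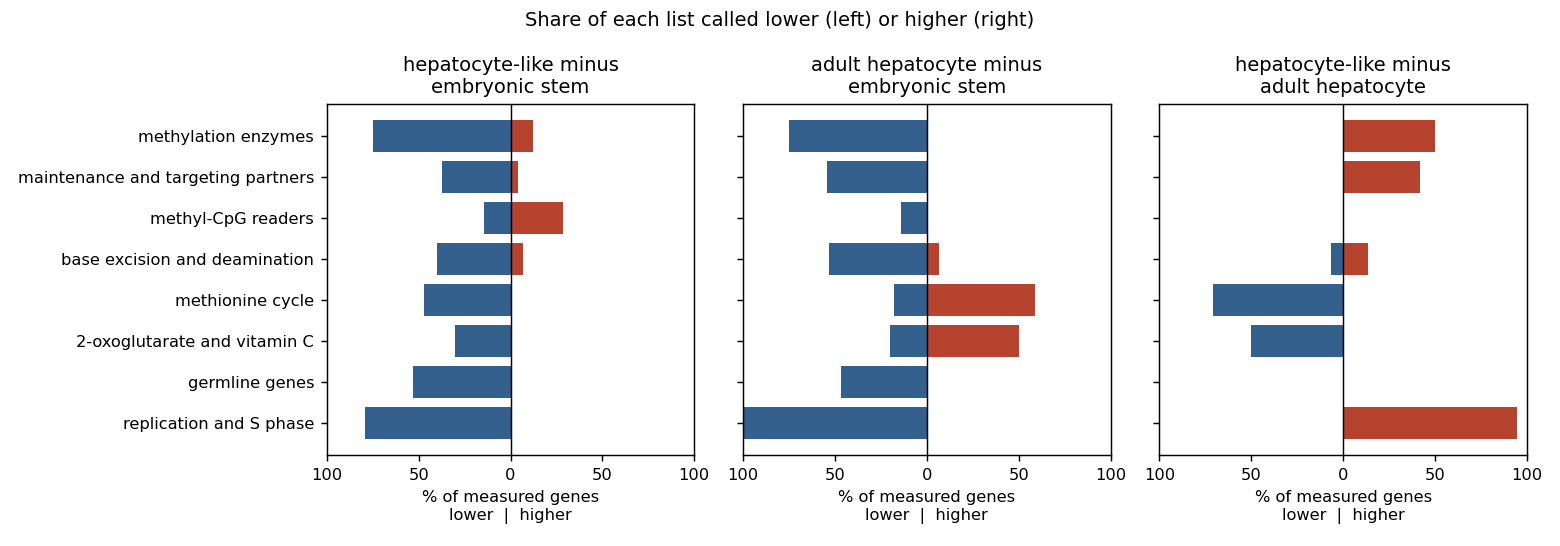
Percent of the measured genes of 8 lists (horizontal axis) called lower, to the left, or higher, to the right, in 3 comparisons. Replication genes lie wholly on the left in adult hepatocytes relative to embryonic stem cells, with 19 of 19, while the methionine cycle lies mostly on the right, with 10 of 17. Over all genes 15.6% were called lower and 11.0% higher in that comparison.

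The genes most like each enzyme over the 10 arrays were found by the root mean square (RMS) difference between mean-centred log2 profiles. Dnmt1 was closest to the histone gene H2bc3 (RMS 0.17), the nucleoporin Nup107 (0.18) and the histone chaperone Asf1b (0.18), beside a profile of RMS 1.40 for Dnmt1 itself. H2bc3 belongs to a family with near-identical copies. Uhrf1 was closest to Bcat1 (0.29), Mcm5 (0.30) and Alg13 (0.35), beside 2.10 for its own profile. Tet1 was closest to Uhrf1 (0.38), Alg13 (0.41) and the DNA repair gene Fanci (0.43), beside 2.12. Dnmt3b was closest to Wdr76 (0.29), Trim13 (0.39) and Ranbp17 (0.40), beside 1.58. Dnmt3l was closest to Eprn (0.15), the stem cell transcription factor gene Foxd3 (0.20) and Mapt (0.21), beside 0.89. Tet2 lay near Fancm, Heatr1 and Mrpl45 (0.21 each), beside 0.999. Dnmt3a lay near Hilpda (0.14), Lrp12 (0.15) and Fbxo10 (0.16), beside 0.57, and Tet3 near Slc9a3r2 (0.12), Sema3d (0.18) and Trim68 (0.19), beside 0.64. With 3 groups, such likeness mostly reflects the order of the group means.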

How the data were processed

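RNA was isolated with TRIzol, column-purified and biotin-labelled by the Affymetrix protocol, per the labels. The deposited log2 values (41345 transcript clusters by 10 arrays, 1.27 to 13.58, array medians 4.91 to 5.07) were tested without further scaling. Transcriptome Analysis Console, R 3.3.1, oligo 1.38.0 and RMA appear in the submitters' processing notes, with no role stated. The log2 scale was read from the range of the values, and neither genome build nor summarisation level is given in the sources used here. The number of arrays limits the precision. Clusters with 1 annotated symbol (23521, with 1814 of several and 16010 of none) gave 22180 genes, the cluster with the highest mean over the 10 arrays standing for each. Of these clusters, 23328 matched the RefSeq annotation by Entrez identifier, and 0 symbols changed.

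All 10 arrays entered 1 limma 3.58.1 fit (R 4.3.3, lmFit and eBayes, 2-sided) of group means, with 7 residual and 5.34 prior degrees of freedom. The exact permutation tests used scipy 1.17.1. Scripts were tested on simulated data. The enzymes and lists were chosen with earlier results of these data known. Text names every enzyme, up to 4 called genes per list and comparison by size of difference, up to 3 markers per list, and the 3 genes nearest each enzyme. Same-numbered arrays did not deviate together (correlations of deviations -0.19 to 0.14), so numbers were not taken as pairs.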

Additional observations from a re-analysis of the deposited data

Results flagged for a closer look

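Tet1 in embryonic stem cells was picked out because its highest array, replicate 1 at 10.50, lay far from the other 3 arrays (9.64, 9.47 and 9.58). The gap was 0.834 of the group's range, just above the critical value of 0.829. Such a gap arises by chance in about 1 of 20 groups, and 8 genes were examined in this group. Without that array Tet1 was still called lower, at -2.85 in hepatocyte-like cells and -4.62 in adult hepatocytes, relative to embryonic stem cells (limma, adjusted p = 7.65e-05 and 4.72e-07).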

How the results depend on the processing

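Of 480 differences of the 8 enzymes recomputed under 20 alternatives, 471 kept direction and side of the threshold, 1 lost its call, 8 gained one and 0 reversed. The loss was Dnmt1 in hepatocyte-like cells against embryonic stem cells without hepatocyte-like replicate 2 (-0.73, the cause was not tested), and the gains were those of Dnmt3b (with array weights, 1.04, and without 2 single arrays), Tet2, Tet3 and Dnmt3a, of which 4 came from dropping the minimum difference. Leaving out each array gave 6 to 7 enzymes called in hepatocyte-like cells and 6 to 6 in adult hepatocytes, each against stem cells, and 4 to 6 for hepatocyte-like cells against adult hepatocytes. Over all genes those counts were 3349 to 3719, 5797 to 6010 and 4933 to 5272. Without a minimum difference 6390, 9205 and 8003 genes were called, against 3540, 5893 and 5106. With arrays centred on their medians, the split of higher and lower calls in hepatocyte-like cells against embryonic stem cells was 1714 and 1841, against 1909 and 1631 as deposited. The replicate block left 7, 6 and 4 enzymes called and changed no enzyme's call, and the shared numbers are no evidence of pairing. The changes of paralog differences kept their sign without any 1 array. Dim levels limit Dnmt3l, Tet1 and Dnmt3b in adult hepatocytes, and Dnmt3l in hepatocyte-like cells.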

Other observations

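The 4 embryonic stem cell arrays fell into the same pairs for several genes, replicates 1 and 3 against 2 and 4, a pattern chosen after the values were seen and given here without a test. The remodeller gene Hells read 10.24 and 9.85 in replicates 1 and 3 and 8.71 and 8.89 in replicates 2 and 4. The meiotic genes Hormad1 (7.50 and 7.64 against 5.67 and 4.58) and Sycp1 (6.72 and 6.41 against 4.21 and 4.74) were higher in replicates 1 and 3, as was the Nodal co-receptor gene Tdgf1 (11.54 and 11.43 against 10.50 and 10.62). Apobec2 (8.05 and 7.98 against 9.30 and 9.05), Prdm14 (8.31 and 8.34 against 8.91 and 8.66) and Dppa3 (5.29 and 5.41 against 6.50 and 6.30), a germline and naive-state gene, were lower there. Among the enzymes Tet2 was higher in replicates 1 and 3, at 9.95 and 9.68 against 9.28 and 9.32. Tet3 (6.24 and 6.02 against 6.60 and 6.57) and Dnmt3a (7.39 and 7.29 against 7.64 and 7.56) were lower there. Dnmt1, from 10.03 to 10.12, and Dnmt3b, from 8.83 to 9.0, varied little over the same 4 arrays. The remaining enzymes did not pair this way. In replicates 1 to 4 Tet1 read 10.50, 9.64, 9.47 and 9.58, Dnmt3l 6.41, 6.90, 7.44 and 6.74, and Uhrf1 10.48, 10.66, 10.75 and 10.70. Replication genes averaged 9.75 and 9.84 in replicates 1 and 3 and 9.69 and 9.67 in replicates 2 and 4. Single replication genes differed more, such as Cdc6, at 9.42 and 9.39 against 8.69 and 8.67, while Mcm2 was lower in replicates 1 and 3, at 10.58 and 10.60 against 10.79 and 10.76. The labels give these arrays no difference beyond their number.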
